A study of Mus musculus with 4 samples.

Results

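Epithelial cells defend the surfaces they line with secreted antimicrobial proteins, and 8 genes of this kind were described here of the 17630 genes listed in each library: *Defb14*, *Defb1*, *S100a8*, *S100a9*, *Lcn2*, *Slpi*, *Pglyrp1* and *Nos2*. They were picked by name and found through their NCBI Gene identifiers. Because the genes were chosen from measured values of these same libraries, already known when the list was drawn up, their differences are given as a description and support nothing by themselves.

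Antimicrobial proteins of epithelia act in several ways. β-Defensins are small cationic peptides that disrupt microbial membranes, the S100A8 and S100A9 proteins form calprotectin, which withholds zinc and manganese from microbes, and lipocalin 2 captures the siderophores with which bacteria gather iron. SLPI inhibits serine proteases such as neutrophil elastase and has antimicrobial activity of its own, PGLYRP1 binds bacterial peptidoglycan, and inducible nitric oxide synthase, the product of *Nos2*, makes nitric oxide from arginine. In skin and mucosa many of these genes are induced by interleukin-1, interleukin-17, interleukin-22 and microbial ligands, and several of them are also abundant in neutrophils.

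The study asked how sympathetic nerve signals act on the mammary gland and its stem cells. RNA-seq libraries came from WT mouse mammary basal cells, the outer layer of the duct, in 4 groups of 1 library each. Sorted cells came from control mice, labelled as having no treatment, and from mice given 6-OHDA, a toxin of noradrenergic nerve endings; the sort kept cells negative for the lineage markers CD31, CD45 and TER119, positive for CD24 and high for CD29. Colonies were grown from basal cells in Matrigel, in medium with epidermal growth factor and insulin–transferrin–selenium, either without agonist or with SP, which is salbutamol (an agonist of β2 adrenoceptors) together with phenylephrine (an agonist of α1 adrenoceptors). All 4 libraries carry the same label of cell type; that these last 2 came from colonies was taken from the description of the series and the agonist label, and that 1 of them was the untreated control from its name. The age of the mice and the number pooled for each library were not given for these libraries in the sources used here. Since each condition had 1 library, no test was made, no difference has a replicate check, and each comparison is one of 2 libraries. Bulk RNA also cannot tell fewer expressing cells from less RNA per cell.

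Expression was given as FPKM, the fragments of a gene relative to its length and to the depth of the library. The values summed to 508071 in control sorted cells, 517504 in 6-OHDA sorted cells, 577631 in control colonies and 588202 in SP colonies, with 16261, 16371, 15934 and 15756 genes above 0. Fragment counts were estimated only roughly, from the steps between low values of genes with a single transcript: if fragments were 280 bases long, a gene with 1 kilobase of effective length and 1 FPKM had from 17.2 to 18.5 of them, depending on the library. The 8 housekeeping genes read were above 0 in all libraries. *Tbp*, chosen after its values were seen as a weakly expressed one, was at 6.55, 6.83, 9.50 and 9.59 FPKM in the same order of libraries. Others of the 8, also named after their values were seen, were not level between colonies. *Pgk1* was at 1207 FPKM with SP and 261 without, and *Gapdh* at 3177 and 1316. *Eef1a1* and *Rplp0* were lower with SP, at 6152 against 7268 and 1885 against 1941 FPKM. Differences were taken on the scale of log2(FPKM + 1), on which weakly expressed genes appear to change less than they do. A gene was compared when its mean over the 2 libraries reached 1 FPKM, and it was counted when its difference was over 0.3 in size, the fold threshold of the study, or over 1.

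The markers of basal cells were present in all 4 libraries. All 12 listed markers were above 0 in each, and their summed level was 10133 FPKM in control sorted cells, 9074 in 6-OHDA sorted cells, 6590.2 in control colonies and 14533 in SP colonies, with *Krt14*, a basal keratin, the most abundant each time. Luminal markers were present as well: their sum was 1147, 1011, 1705 and 1613 FPKM in the same order, led in each library by *Krt8*, a luminal keratin. Neither the sort nor the culture thus gave a library free of transcripts that mark the inner layer of the duct.

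The β-defensins were low or listed at 0 in sorted cells and in control colonies. *Defb14* (NCBI Gene 244332, chr8:19160244-19195309 in GRCm38.p6), the mouse counterpart of human β-defensin 3, was listed at 0 in both sorted libraries, at 2.38 FPKM in control colonies and at 69.9 FPKM in SP colonies. *Defb1* (NCBI Gene 13214, chr8:21776555-21795185), which many epithelia express without a stimulus, was listed at 1.23 FPKM in control sorted cells, 2.72 in 6-OHDA sorted cells, 0.69 in control colonies and 9.04 in SP colonies. The SP colonies thus held the most of both defensin transcripts. The annotated transcript of *Defb14* is 204 bases long, shorter than the assumed fragment, so its FPKM could not be turned into fragments and its level depends strongly on the effective length used; a few fragments may stand behind the value in control colonies. The values of *Defb1* stood for about 13, 28, 8 and 99 fragments in the 4 libraries.

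The calprotectin pair was found almost only in colonies. *S100a8* (NCBI Gene 20201, chr3:90669071-90670034) was listed at 0 in control sorted cells, at 0.47 FPKM in 6-OHDA sorted cells, at 30.9 FPKM in control colonies and at 125 FPKM in SP colonies. *S100a9* (NCBI Gene 20202, chr3:90692630-90695721), whose protein is the partner of S100A8, was listed at 0 in 3 libraries and at 6.40 FPKM in SP colonies. *S100a8* was therefore present in both colony libraries and *S100a9* only where SP had been added, and the level of *S100a8* in those colonies was far above that of its partner. The 0.47 FPKM of *S100a8* stood for about 2 fragments, and the 6.40 FPKM of *S100a9* for about 28.

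*Lcn2* and *Slpi* were at the opposite end of abundance. *Lcn2* (NCBI Gene 16819, chr2:32384637-32387739) was listed at 762 FPKM in control sorted cells, 841 in 6-OHDA sorted cells, 848 in control colonies and 652 in SP colonies, between place 97 and place 136 among all genes of its library. *Slpi* (NCBI Gene 20568, chr2:164354070-164356507) was listed at 725 FPKM in control sorted cells, 493 in 6-OHDA sorted cells, 3919.5 in control colonies and 2024 in SP colonies. It took place 121 and place 159 in the control and 6-OHDA sorted cells, place 4 in control colonies and place 37 in SP colonies. Lipocalin 2 transcripts thus ranged from 652 to 848 FPKM over the 4 libraries, while those of the protease inhibitor were higher in both colony libraries than in either sorted one.

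*Pglyrp1* and *Nos2* had the reverse order, with higher values in sorted cells than in colonies. *Pglyrp1* (NCBI Gene 21946, chr7:18884690-18890438) was listed at 24.8 FPKM in control sorted cells, 12.1 in 6-OHDA sorted cells, 3.13 in control colonies and 5.79 in SP colonies. *Nos2* (NCBI Gene 18126, chr11:78920787-78960226) was listed at 0.55, 0.61, 0.13 and 0.12 FPKM in the same order, which on its long transcripts stood for between 31 and 41 fragments in the sorted libraries and between 7 and 9 in the colonies. Inducible nitric oxide synthase was thus barely transcribed in any of these libraries. Together the 8 genes made up 0.298% of the FPKM sum in control sorted cells, 0.261% in 6-OHDA sorted cells, 0.832% in control colonies and 0.492% in SP colonies, and *Slpi* and *Lcn2* held nearly all of it.

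**Figure D1:**
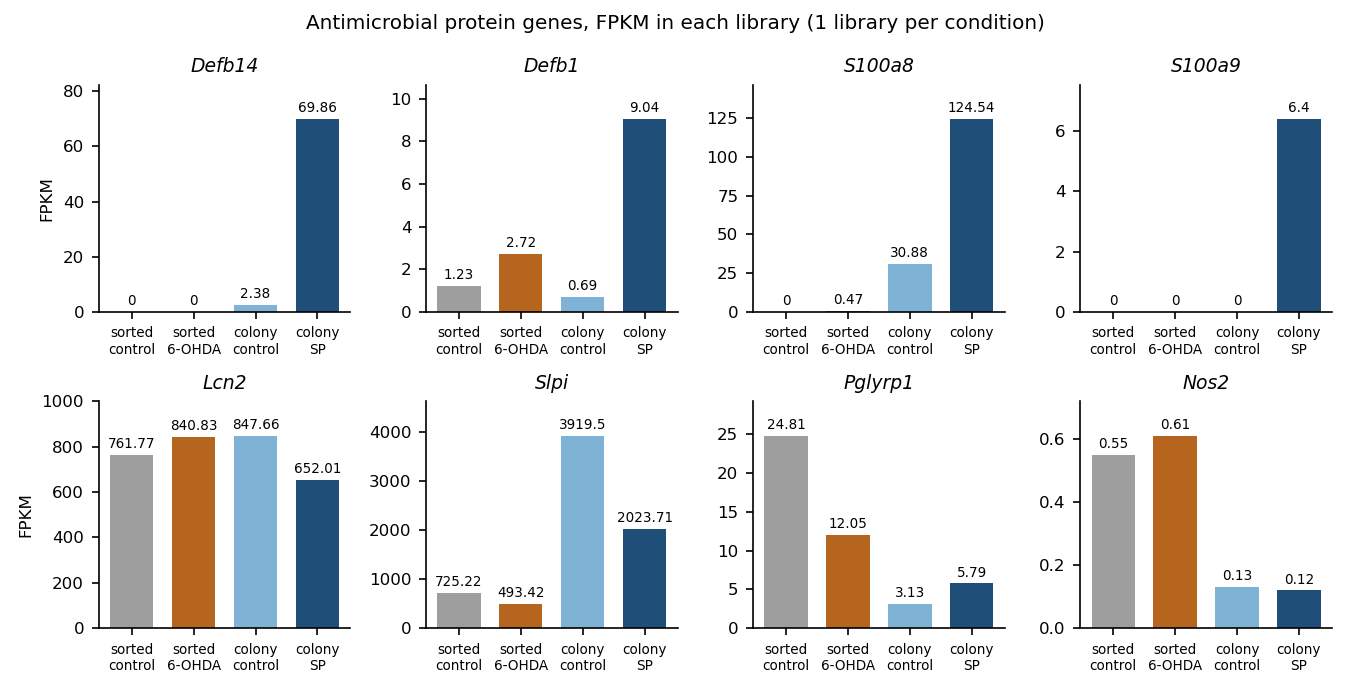
FPKM of each of the 8 antimicrobial protein genes (vertical axis, from 0, with its own scale in each panel) in sorted control, sorted 6-OHDA, control colony and SP colony libraries; each bar is 1 library, so there is no error bar. *Defb14*, *Defb1*, *S100a8* and *S100a9* were highest in SP colonies, *Slpi* in control colonies, and *Pglyrp1* in control sorted cells.

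SP colonies were compared with control colonies to see which transcripts follow adrenergic agonists in culture. The defensin and calprotectin genes were higher with SP. *Defb14* was at 69.9 against 2.38 FPKM, a difference of 4.39 on the log2 scale, *Defb1* differed by 2.57, a 13.1-fold ratio of FPKM, and *S100a8* by 1.98, a 4.03-fold ratio. *S100a9* differed by 2.89 and was listed at 0 in the control colonies, so no ratio is given. The pattern was not one of higher levels throughout, because the abundant genes went the other way: *Slpi* was lower with SP, with a difference of -0.95 on the log2 scale, and control colonies held 1.94 times its level in SP colonies. *Lcn2* was also lower, with a difference of -0.38. *Pglyrp1* differed by 0.72, from 3.13 to 5.79 FPKM, and *Nos2*, at -0.01, was under the filter.

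Of the 8 genes, 7 passed the filter and all 7 were past 0.3, of which 5 were higher and 2 lower with SP. Among the 11849 genes compared, 11.7% were higher and 19.8% lower by more than 0.3. Past 1 there were 4 of the antimicrobial genes, all higher, where 2.0% of all compared genes were higher and 1.33% lower. *Defb1* and *S100a9* passed the filter through the SP library alone, so they had to differ, and nothing is read from these counts. The median difference of the 7 genes was 1.98, beside -0.07 for all genes compared.

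The comparison of 6-OHDA with control sorted cells bears on the loss of sympathetic nerves in the animal, and here few of the genes could be compared. *Pglyrp1* was at 12.1 FPKM after 6-OHDA and at 24.8 FPKM in control cells, a difference of -0.98 on the log2 scale. *Slpi* differed by -0.55, from 725 to 493 FPKM, and *Defb1* by 0.74, from 1.23 to 2.72 FPKM. *Lcn2* differed by 0.14, inside the threshold. *S100a8*, at 0.56, and *Nos2*, at 0.05, were under the filter, and *Defb14* and *S100a9* were listed at 0 in both libraries. The peptidoglycan-binding protein and the protease inhibitor were thus lower after 6-OHDA, and neither calprotectin gene was at a level that could be compared.

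Of the 4 genes that passed the filter, 1 was higher and 2 were lower by more than 0.3, and none was past 1. Among the 11749 genes compared, 15.8% were higher and 8.35% lower by more than 0.3, and 1.05% were higher and 0.902% lower by more than 1. The median of the 4 genes was -0.21 and that of all compared genes 0.06. The 6-OHDA library also held transcripts of salivary gland secretory cells: all 10 listed markers were above 0, led by *Bpifa2* at 7277 FPKM, and they summed to 15754 FPKM or 3.04% of that library, against 1.87 FPKM in control sorted cells. Rescaling without them left the 4 differences on the same side of the threshold. Fibroblast markers differed as well, with 5 of 7 higher after 6-OHDA and a sum of 379 against 183 FPKM; *Col3a1*, a fibrillar collagen, was at 91.7 against 18.3 FPKM. Of 12 luminal markers compared, 5 were lower and 1 higher after 6-OHDA, with *Aldh1a3*, *Prlr* and *Gata3* at -0.92, -0.53 and -0.39 on the log2 scale, and the luminal sum was 1011 against 1147 FPKM. The part of these other cells in the differences of *Pglyrp1*, *Slpi* and *Defb1* was not tested.

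Control colonies and control sorted cells differ in culture, matrix and time outside the animal, and these cannot be told apart. *Slpi* was at 3919.5 FPKM in colonies and 725 FPKM in sorted cells, a 5.40-fold ratio and a difference of 2.43 on the log2 scale. *S100a8* differed by 4.99 and *Defb14* by 1.76, both listed at 0 in the sorted cells. *Pglyrp1* was lower in colonies, with a difference of -2.64, and the sorted cells held 7.93 times the level of the colonies. Between these libraries the compared antimicrobial genes other than *Lcn2* thus divided into those that colonies held more of and 1, *Pglyrp1*, that they held less of.

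Whole libraries shifted here, as 55.7% of the 12244 genes compared were higher and 26.6% lower in colonies by more than 0.3, and 30.7% were higher and 13.2% lower by more than 1. The median of all compared genes was 0.45. Of the 5 antimicrobial genes that passed the filter, 3 were higher and 1 lower by more than 0.3, and the same counts held past 1; their median was 1.76. *S100a8* and *Defb14* passed the filter through the colonies alone. Relative to the shift, *S100a8* differed by 4.54, *Slpi* by 1.98, *Defb14* by 1.31 and *Pglyrp1* by -3.10. *Lcn2* differed by 0.15 as deposited and by -0.30 relative to the shift, and with libraries scaled by the median ratio it was at -0.35, so no direction is given for it. *Defb1*, at -0.40, and *Nos2*, at -0.46, were under the filter, and *S100a9* was listed at 0 in both libraries.

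The epithelial markers differed between the same 2 libraries. Of 13 luminal markers, 10 were higher in control colonies and 0 lower, or 8 and 2 relative to the shift, where 55.7% of all genes were higher and 26.6% lower. *Elf5*, which passed the filter through the colonies alone, *Foxa1* and *Cldn3* were at 3.85, 2.74 and 2.53 on the log2 scale. Of 12 basal markers, 8 were lower in colonies and 2 higher, or 10 and 2 relative to the shift, with *Myh11*, *Mylk* and *Cnn1*, genes of the contractile apparatus, at -5.26, -4.76 and -4.04. *Slpi* was thus higher in the library with higher luminal markers, and the part of the mix of cells in the differences of the antimicrobial genes was not tested.

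The families of the 8 genes were then described from lists of named relatives, whose counts carry the same limits as those of the 8 genes: the shares of all compared genes given for each comparison are the background, and a gene that passed the filter through 1 library alone had to differ. Of 50 β-defensin symbols, 5 matched genes in the files, and all 5 were above 0 in SP colonies. *Defb3*, another inducible β-defensin, was listed at 0 in 3 libraries and at 3.14 FPKM in SP colonies. *Defb4*, named after its values were seen, was listed at 0 in the same 3 libraries and at 0.86 FPKM with SP. *Defb6* was listed at 2.74 FPKM in control sorted cells, at 0 in 6-OHDA sorted cells and control colonies, and at 0.78 FPKM in SP colonies. Only 8 of the 17630 genes in the files were at 0 in all 4 libraries, so *Defb3* and *Defb4* may be listed because of their values in SP colonies, and nothing is read from the number matched. The summed level of the 5 was 83.7 FPKM in SP colonies, most of it *Defb14*, and between 2.72 and 3.97 FPKM in the other libraries. These transcripts are short and related in sequence, and their low values are uncertain.

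Other S100 genes, small calcium-binding proteins with many roles outside defence, ranged from under 1 FPKM to levels far above the calprotectin pair. *S100a11* was the most abundant of 15 matched genes in each library, at 1212 FPKM in control sorted cells, 1192 in 6-OHDA sorted cells, 2133 in control colonies and 2615 in SP colonies. With SP, 6 of 12 compared S100 genes were higher and 3 lower, where 11.7% and 19.8% of all genes were, and the largest differences belonged to *S100a9* and *S100a8*, with *S100b* next at -1.21. Leaving out the calprotectin pair, 4 of 10 were higher and 3 lower. After 6-OHDA, 3 of 9 were higher and 0 lower, led by *S100a4* at 34.2 against 10.3 FPKM, a gene also expressed by fibroblasts and leukocytes. Between the controls, 8 of 11 were higher in colonies and 3 lower, where 55.7% and 26.6% of all genes were, with *S100a14*, an epithelial S100 gene, at 212 against 34.9 FPKM.

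The WAP domain family, to which *Slpi* belongs by its whey acidic protein domains, had its compared genes higher in control colonies. All 6 of them were higher than in control sorted cells, also relative to the shift of all genes, where 55.7% of all genes were higher. *Wfdc12* and *Wfdc15b* passed the filter through the colonies alone, and *Wfdc1* and *Wfdc17*, under the filter and named after their values were seen, were lower in colonies, at -1.29 and -0.76. *Wfdc18* was at 567 FPKM in control colonies and 32.3 in sorted cells, *Wfdc2* at 173 and 29.4, and *Wfdc12* at 11.04 and 0.25. *Slpi* was the most abundant of the 12 matched genes in each of the 4 libraries. With SP the family divided, with 2 of 7 higher and 3 lower: *Wfdc12* was higher by 0.78, while *Slpi* and *Wfdc15b*, at -0.95 and -0.56, were lower. After 6-OHDA, 3 of 7 were higher and 1, *Slpi*, lower; *Wfdc12* was at 17.3 against 0.25 FPKM and *Wfdc2* at 47.4 against 29.4 FPKM. *Wfdc12* passed the filter through the 6-OHDA library alone, so it had to differ, and that library is the one with salivary transcripts at 3.04% of its sum, whose part was not tested.

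*Lcn2* stood alone among the lipocalins, with 5 of 13 symbols matched and no other above 10.5 FPKM in any library. *Apod*, apolipoprotein D, was at 10.2, 10.5, 7.43 and 3.88 FPKM in control sorted cells, 6-OHDA sorted cells, control colonies and SP colonies, and *Rbp4*, the retinol carrier of plasma, at 0.77, 0.56, 2.26 and 0.74 FPKM. All 3 lipocalins compared between colonies were lower with SP. *Ptgds*, a prostaglandin synthase, was lower after 6-OHDA, at -0.69 on the log2 scale, and lower in control colonies than in control sorted cells, at -1.61. None of these reached a level near that of *Lcn2*.

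Among the 4 peptidoglycan recognition proteins the most abundant one changed between sorted cells and colonies. *Pglyrp1* led in both sorted libraries, and *Pglyrp3*, which is known from skin and other squamous epithelia, led in both colony libraries. *Pglyrp3* was at 0.18 FPKM in control sorted cells, 0.27 in 6-OHDA sorted cells, 7.17 in control colonies and 7.37 in SP colonies. It differed by 0.03 between SP and control colonies, so its gap lay between sorted cells and colonies. *Pglyrp2* and *Pglyrp4*, named after their values were seen, stayed at or under 0.54 FPKM in all 4.

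Nitric oxide synthases were scarce in colonies. *Nos3*, the endothelial synthase, was at 7.66 and 9.02 FPKM in control and 6-OHDA sorted cells and at 0.04 and 0.17 FPKM in control and SP colonies. Of the 12 genes of nitric oxide and arginine metabolism compared between colonies, 2 were higher with SP and 3 lower; *Ddah2* and *Slc7a2*, an arginine transporter gene, were lower, at -0.98 and -0.80 on the log2 scale. Of 13 compared after 6-OHDA, 3 were higher and 1 lower, and *Pts*, of the pathway to the synthase cofactor, was at 9.72 against 4.42 FPKM. Of 13 compared between the controls, 7 were higher in colonies and 6 lower. *Odc1*, of polyamine synthesis, was the most abundant in both sorted libraries and in SP colonies, and *Ass1*, which remakes arginine, in control colonies.

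Other antimicrobial effectors differed in both directions with SP, 6 of 14 higher and 5 lower, where 11.7% of all genes were higher and 19.8% lower. The acute-phase genes *Saa1* and *Saa2* were at 25.7 and 22.7 FPKM in SP colonies and at 3.83 and 2.0 FPKM in control colonies; they are nearly identical in sequence, so how fragments were split between them is uncertain. Lactoferrin (*Ltf*), an iron-binding protein of milk and of neutrophil granules, was at 21.5 FPKM in control sorted cells, 16.6 in 6-OHDA sorted cells, 3.13 in control colonies and 19.8 in SP colonies. *Saa3*, by contrast, was lower with SP, at 9.32 against 45.8 FPKM, and had been listed at 0 in control sorted cells and at 6.14 FPKM after 6-OHDA. The 3 serum amyloid genes thus did not share a direction in colonies. After 6-OHDA, 5 of 13 effectors were higher and 2 lower, and besides *Saa3* the largest differences were those of *Lpo*, itself on the salivary list, at 2.40, and *Dmbt1* at -2.13. *Saa3*, *Lpo* and *Dmbt1* each passed the filter through 1 library alone, so they had to differ. Between the controls 7 of 14 were higher in colonies and 6 lower, but 6 and 7 relative to the shift of all genes; *Cxcl14*, an antimicrobial chemokine and the most abundant effector in sorted cells, was at 944 FPKM in sorted cells and 20.5 in colonies, and *Hp*, haptoglobin, at 4.87 and 104 FPKM.

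The cytokines that induce such genes in other epithelia were listed next. With SP, 3 of 6 compared cytokine genes were higher and 0 lower, where 11.7% of all genes were higher: *Il1a* was at 34.2 against 9.01 FPKM, and *Il1f9* and *Il1f6*, which encode interleukin-36γ and interleukin-36α, at 2.55 against 0.95 and 1.94 against 0.63 FPKM. *Il1f9* and *Il1f6* passed the filter through the SP library alone, so they had to differ, while *Il1a* was above 1 FPKM in both colony libraries. *Il6* was the most abundant cytokine of the list in sorted cells, at 139 FPKM in control and 196 FPKM in 6-OHDA cells, and was at 0.25 and 1.01 FPKM in control and SP colonies. *Csf3*, the neutrophil growth factor gene, was at 117 and 126 FPKM in sorted cells and at 12.5 and 15.6 FPKM in colonies. *Tnf* was the most abundant in both colony libraries, at 36.5 FPKM without and 42.5 FPKM with SP, against 3.93 FPKM in control sorted cells. The most abundant cytokine of the list thus differed between the sorted and the cultured cells, while both held *Tnf* and *Csf3* at different levels. *S100a8*, *Defb14* and *Slpi* were higher, and *Pglyrp1* lower, in the colony libraries, which had more *Tnf* and *Il1a* and less *Il6* and *Csf3*. Between the colonies *Slpi* was at 2024 FPKM with SP and 3919.5 without. *Tnf* differed there by 0.21 on the log2 scale, inside the threshold, and *Il1a* was higher with SP. No relation was tested over 4 libraries.

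Receptors and adaptors of these signals included 12 of 28 compared that were lower with SP and 2 that were higher, or 9 and 4 relative to the median of all genes; 19.8% of all genes were lower and 11.7% higher. *Nod2*, a sensor of bacterial muramyl dipeptide, had the largest difference, 1.08 on the log2 scale, from 2.02 to 5.40 FPKM, while *Tlr2* and *Osmr* were lower, at -0.79 and -0.72. After 6-OHDA, 5 of 25 were lower and 1 higher: *Tlr3*, a sensor of double-stranded RNA, was at 2.43 against 7.39 FPKM, *Nod1* at 6.72 against 11.2 and *Cd14* at 20.2 against 29.9 FPKM. Between the controls 13 of 28 were higher in colonies and 12 lower, but 12 and 14 relative to the shift of all genes. *Il17re*, a subunit of the interleukin-17C receptor, was at 18.1 FPKM in control colonies and 2.04 in sorted cells, and *Il6st* at 35.9 and 166 FPKM.

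Transcription factors known to act on antimicrobial genes were lower in control colonies than in sorted cells for 16 of 19, against 26.6% of all genes compared. *Cebpb*, the most abundant of them in sorted cells, was at 409 FPKM in control sorted cells, 274 in 6-OHDA sorted cells, 106 in control colonies and 81.7 in SP colonies. *Irf1* and *Bcl3* were lower in colonies, both with a difference of -2.52, whereas *Ehf*, an epithelial ETS factor, was at 47.5 FPKM in colonies and 2.59 in sorted cells. With SP, 3 of 19 were higher and 1 lower: *Hif1a*, the oxygen-regulated factor, was at 70.8 against 36.8 FPKM, and *Grhl3*, a factor of the epidermal barrier, at 9.44 against 5.36 FPKM. After 6-OHDA, 2 of 18 were higher and 3 lower; *Ehf* differed by 1.02, from 2.59 to 6.26 FPKM, and *Cebpb* by -0.57. Transcript levels of these factors say nothing of their activity.

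Receptors and targets of the antimicrobial proteins themselves were few. *Tlr4*, a receptor reported for the S100A8 and S100A9 proteins, was at 2.44, 2.55, 4.97 and 4.23 FPKM in control sorted cells, 6-OHDA sorted cells, control colonies and SP colonies. *Slc22a17*, the lipocalin 2 receptor, was at 3.45 FPKM with SP and 8.46 without, the largest difference of this list between colonies at -1.09. *Anxa2*, the partner of *S100a10*, was the most abundant in each library and was at 1334 FPKM with SP and 682 without. *Bsg*, which encodes basigin, a receptor reported for S100A9, was at 499 FPKM with SP and 317 without. Of 6 compared between colonies, 2 were higher with SP and 3 lower; of 7 after 6-OHDA none was past 0.3; and of 7 between the controls 6 were higher in colonies and 1 lower, or 4 and 1 relative to the shift, where 55.7% of all genes were higher as deposited. The symbol of neutrophil elastase, a target of SLPI, matched none of the genes with values, so its level is not known here. *Ctsg*, the gene of another protease that SLPI inhibits, named after its values were seen, was at or under 0.08 FPKM in all libraries.

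**Figure D2:**
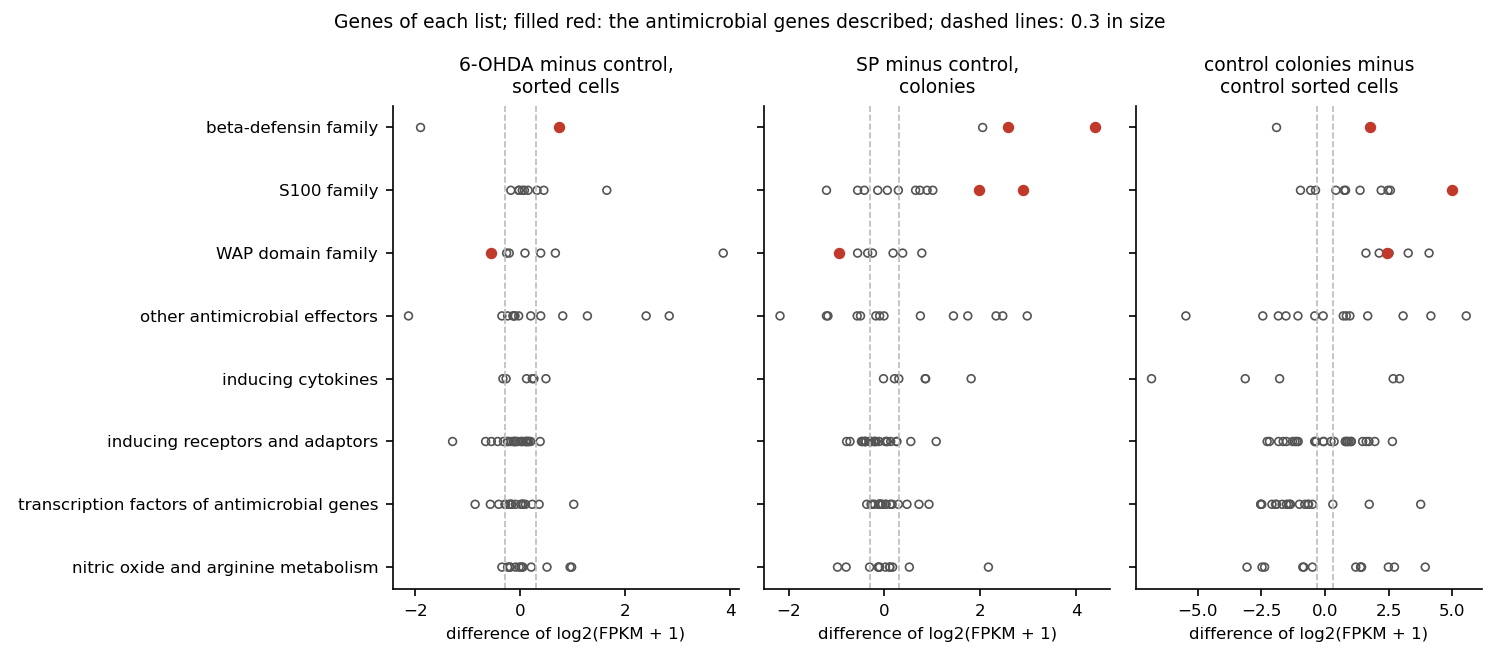
Difference of log2(FPKM + 1) of each compared gene (horizontal axis; 1 point per gene) in 8 gene lists (rows), for 6-OHDA against control sorted cells, SP against control colonies, and control colonies against control sorted cells. Filled points are the antimicrobial genes described, open points the other genes of each list, and dashed lines mark 0.3 in size; with SP the filled points of the defensin and S100 lists lie between 1.98 and 4.39, and that of *Slpi* at -0.95.

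*S100a8*, *S100a9*, *Lcn2*, *Ltf* and *Pglyrp1* are also genes of neutrophils, so markers of blood cells were read beside them. Of 15 neutrophil markers 10 matched, and their sum was 23.6 FPKM in control sorted cells, 17.5 in 6-OHDA sorted cells, 7.38 in control colonies and 24.0 in SP colonies. *Ltf*, which mammary epithelium also makes, was the most abundant in both sorted libraries and in SP colonies, and *Prtn3* in control colonies, at 3.31 FPKM. The other 8 stayed under 1 FPKM in all libraries. Of the defining markers, which were singled out after their values were seen, the receptor gene *Csf3r* was listed at 0 in both colony libraries and *Mpo*, the granule peroxidase, was at 0 and 0.02 FPKM there. *Ptprc*, the gene of CD45, was at 0.77 and 0.47 FPKM in control and 6-OHDA sorted cells and listed at 0 in both colony libraries. The sum of 8 leukocyte markers was 15.6, 12.7, 6.64 and 7.19 FPKM in control sorted cells, 6-OHDA sorted cells, control colonies and SP colonies, most of it in colonies from *Lcp1*. With SP the neutrophil sum was thus higher, as *Ltf* was, *Prtn3* was at 3.31 FPKM in both colony libraries, and *Lcp1* was at 6.43 against 5.45 FPKM; the part of blood cells in the levels of *S100a8* and *S100a9* was not tested.

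Macrophage and lymphocyte markers were low in the same way. The sum of 10 macrophage markers was 14.5 FPKM in control sorted cells, 13.4 in 6-OHDA sorted cells, 2.89 in control colonies and 3.61 in SP colonies, led each time by *Cd68*, and 6 of the 10 were listed at 0 in control colonies and 4 in SP colonies. The sum of 9 lymphocyte markers was 4.34, 3.27, 0.67 and 1.25 FPKM in the same order, led by *Cd79a*, with 7 and 6 listed at 0 in the colonies. Endothelial markers, in contrast, were present in both sorted libraries although the gate removed CD31-positive cells: their sum was 242 FPKM in control and 235 in 6-OHDA sorted cells, and 1.75 and 1.85 FPKM in control and SP colonies, and *Pecam1*, the gene of CD31 and the most abundant of the 6, was at 107, 93.0, 1.39 and 1.56 FPKM. *Pglyrp1*, *Nos2* and *Nos3* were higher in the same 2 libraries; the part of endothelial cells in those levels was not tested.

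Markers of squamous keratinocytes were higher in the same library as the defensins and the calprotectin pair. All 12 compared squamous markers were higher with SP, where 11.7% of all genes were, with a median of 2.14. *Krt1* and *Cnfn* passed the filter through the SP library alone. *Ivl*, *Flg*, *Tgm3* and *Lor*, under the filter and named after their values were seen, stayed under 1 FPKM in both colony libraries. *Lor* was lower with SP, at 0.18 against 0.54 FPKM. The sum of the 16 listed was 3608 FPKM in SP colonies, 423 in control colonies, 135 in control sorted cells and 131 in 6-OHDA sorted cells. *Krt6a*, a keratin of activated epidermis and the most abundant in both colony libraries, was at 2198 against 260.3 FPKM, *Krtdap* at 528 against 29.5 FPKM, and *Krt6b* and *Krt16* at 214 against 16.5 and 434 against 44.1 FPKM. The basal markers were higher with SP too, 9 of 12, led by *Krt17*, *Krt5* and *Krt14*, while 7 of 13 luminal markers were lower and 0 higher, or 4 lower and 1 higher relative to the shift of all genes, where 19.8% of all genes were lower. *Foxa1*, *Aldh1a3* and *Esr1* were at -0.80, -0.71 and -0.69, but the abundant luminal keratin genes differed little: *Krt8* was at -0.03, and *Krt19* and *Krt18*, named after their values were seen, at -0.02 and 0. Fibroblast markers were lower with SP for 4 of 5 compared, of which *Col3a1* passed the filter through control colonies alone, and their sum was 12.7 FPKM against 40.0. *Defb14*, *Defb1*, *S100a8* and *S100a9* were thus higher in the library where the compared squamous markers were higher. Whether a change in the mix of cells took part was not tested.

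The genes whose pattern over the 4 libraries was nearest to each antimicrobial gene were found by Euclidean distance between centred log2(FPKM + 1) values, among the 9101 genes whose mean over all 4 reached 5 FPKM. Nearest to *Defb14* were *Krt6a* (distance 1.15), *Klk10* (1.52), a kallikrein-related peptidase, and *Sprr1b* (1.52). Nearest to *S100a8* were *Klk8* (0.35), *Csn1s1* (0.48), a milk casein, and *Cstdc6* (0.49), and nearest to *S100a9* were *Car9* (0.32), *Krt16* (0.43) and *Pgk1* (0.49). Each of these neighbours was highest in SP colonies, as a choice by pattern makes likely. *Klk8* was at 0.28, 0.71, 28.4 and 137 FPKM in control sorted cells, 6-OHDA sorted cells, control colonies and SP colonies. *Car9*, a carbonic anhydrase known to respond to low oxygen, was at 1.95, 2.10, 2.93 and 25.1 FPKM in the same order.

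The other 5 genes had neighbours of other kinds. Nearest to *Defb1* were *Ly6a* (0.32), *Pfkl* (0.55) and *Epgn* (0.67), of which *Ly6a* encodes the surface protein SCA-1, and nearest to *Slpi* were *H2aw* (0.17), *Atp6v1b1* (0.31) and *Wwp2* (0.33). Nearest to *Pglyrp1* were *Ifi211* (0.20), *C1s1* (0.23), a complement protease gene, and *Ces2g* (0.29). *C1s1* was at 110.3, 66.5, 16.5 and 31.2 FPKM in control sorted cells, 6-OHDA sorted cells, control colonies and SP colonies, the same order as *Pglyrp1*. Nearest to *Lcn2* were *Krit1* (0.05), *Arl4a* (0.05) and *Phka2* (0.06), and nearest to *Nos2* were *Utp18* (0.03), *Smarca5* (0.03) and *Acsl3* (0.04); both of these genes differ little on this scale, so many genes lie near them. Over only 4 libraries a near pattern is easily found, and nothing is read from it about shared control.

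*S100a8* and *S100a9* lie close together on chromosome 3, and both were highest in SP colonies, whereas *Slpi* was lower there. The sequence before their starts is shown for this reason, from RefSeq on GRCm38.p6, where 5 of the 8 genes matched a promoter entry (*S100a8*, *S100a9*, *Lcn2*, *Slpi* and *Pglyrp1*). Each stretch is the longest within the 250 bases before the RefSeq start that lies outside all annotated GENCODE exons of its gene, and capitals mark matches, on either strand, to 5 motifs: TATAAA (the box bound by TBP), TTNNGNAA (C/EBP), TTCNNNGAA (STAT), GGANTTNCC (NF-κB) and ACGTG (hypoxia-inducible factors). The motifs were picked from general knowledge after the values were seen. The stretch of *S100a8* is chr3:90668821-90668977 on the plus strand, that of *S100a9* chr3:90695722-90695971 on the minus strand, and that of *Slpi* chr2:164356508-164356757 on the minus strand.
S100a8: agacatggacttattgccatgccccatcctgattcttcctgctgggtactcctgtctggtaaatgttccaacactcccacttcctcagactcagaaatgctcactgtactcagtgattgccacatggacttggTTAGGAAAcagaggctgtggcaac
S100a9: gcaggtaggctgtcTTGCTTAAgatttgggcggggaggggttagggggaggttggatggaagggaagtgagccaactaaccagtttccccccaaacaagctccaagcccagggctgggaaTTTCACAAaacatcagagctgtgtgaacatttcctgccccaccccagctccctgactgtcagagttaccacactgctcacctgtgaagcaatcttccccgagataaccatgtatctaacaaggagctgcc
Slpi: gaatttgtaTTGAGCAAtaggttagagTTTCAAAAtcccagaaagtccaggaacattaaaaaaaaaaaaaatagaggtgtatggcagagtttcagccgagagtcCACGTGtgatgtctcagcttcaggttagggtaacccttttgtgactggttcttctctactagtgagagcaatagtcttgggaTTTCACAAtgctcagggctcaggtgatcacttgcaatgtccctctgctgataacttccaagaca
All 3 held the C/EBP letters, with 1 match before *S100a8*, 2 before *S100a9* and 3 before *Slpi*, and *Slpi* also held the hypoxia letters, in a palindrome read on both strands. The C/EBP letters were in 36.8% of all 32851 promoters over the full 250 bases and in 27.1% over the same 157 bases as the *S100a8* stretch, and the hypoxia letters in 16.6% over 250 bases. The TBP letters were in 12.4%, the STAT letters in 7.02% and the NF-κB letters in 3.15% of all promoters over 250 bases, and none of these was in the 3 stretches shown. The stretch of *Pglyrp1*, 240 bases long and not shown, held the NF-κB letters, as did 3.06% of all promoters over the same bases, and the 53 bases left for *Lcn2* held none of the 5. A match is not a bound site.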

How the data were processed

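RNA-seq of 4 libraries was used, 1 per group: control and 6-OHDA sorted basal cells, and control and SP basal colonies. The authors deposited FPKM values with 2 decimals for 17630 genes. The submitters' processing notes name Bowtie2, RSEM 1.3.1, DESeq2 1.4.5 and the build mm10. FPKM divides by all fragments, so abundant transcripts in 1 library lower the other values there. Gene identifiers were matched to RefSeq (GRCm38.p6), which named 17512 genes; the other 118 stayed unnamed.

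Values were compared as log2(FPKM + 1) at a mean FPKM of at least 1, with thresholds of 0.3 and 1, without a test. Named were the 8 genes in every library; of each list, the 3 compared genes with the largest change in each comparison and the most abundant gene in each library; and the 3 genes nearest to each of the 8 in pattern. Genes named otherwise are marked, and 2 genes the rule covers are not reported here. The 8 genes and the lists were chosen with earlier results of these data known. Alternatives were pseudocounts of 0.1 and 5, 4 scalings, 2 filters and the larger threshold. The steps were tested on simulated data. Python 3.11.15, numpy 2.4.6, pandas 2.3.3 and matplotlib 3.10.9 were used.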

Additional observations from a re-analysis of the deposited data

How the results depend on the processing

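The difference of each of the 8 genes in each of the 3 comparisons was recomputed with pseudocounts of 0.1 and 5 and under 4 scalings, 144 values in all. Of these, 18 belong to genes listed at 0 in both libraries, which no setting can move. Of the other 126, 120 kept their side of 0.3 and did not cross 0 at 2 decimals, and 3 came inside 0.3, all with a pseudocount of 5. Among the 120, *Nos2* went to 0 under quantile normalization, from -0.01 with SP and from 0.05 after 6-OHDA. The other 3 changed sign, all for *Lcn2* between the controls: from 0.15 it went to -0.03 under both rescalings to the same sum, and to -0.35, past the threshold, after scaling by the median ratio. With a mean FPKM of at least 5, 4 genes were past 0.3 with SP, fewer being compared, and the medians were -0.55 after 6-OHDA, 0.80 with SP and 1.29 between the controls. Without a filter all 8 genes were compared, and the medians were 1.35 with SP and 0.08 between the controls; after 6-OHDA the median changed sign, from -0.21 to 0.03. The counts without a filter were 2 higher and 2 lower after 6-OHDA, 5 and 2 with SP, and 3 and 3 between the controls. With a pseudocount of 5 the medians were 1.19 with SP and 0.56 between the controls, and with 0.1 the median between the controls was 2.43; with median-ratio scaling it was 1.42. At a threshold of 1 the counts were 0 after 6-OHDA and 4 with SP.

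Scaling moved the split of all compared genes. After scaling by the median ratio, 11.6% were higher and 11.4% lower after 6-OHDA, 14.8% and 14.9% with SP, and 39.7% and 39.4% between the controls. No paired analysis was possible because each group has 1 library. Low values rest on few fragments, and the spread between animals or cultures is unknown for every difference.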
